A study of Homo sapiens with 10 samples.

Results

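Hepatocyte plasma protein genes are genes for proteins that the liver secretes into blood. The 34 genes described here were chosen by name, and each was found by its gene symbol in the deposited count files, which list 19215 symbols. They were followed in 10 poly(A) RNA-seq libraries from 2 human liver tumour lines: 3 of HepG2 with a miR-17 decoy (HepG2 miR-17 TuD), 3 of HepG2 with a control decoy (HepG2 NC TuD), 2 of SK-Hep1 with the miR-17 decoy and 2 of SK-Hep1 with the control decoy. HepG2 is an epithelial liver tumour line that secretes many plasma proteins. SK-Hep1 was derived from a liver tumour but has a reported endothelial origin. A tough decoy (TuD) is an RNA hairpin that holds a microRNA and keeps it from its targets.

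All 4 groups carry a lentiviral vector, transduced for 48 h at a multiplicity of infection of 5 with 10 µg/mL polybrene. They were kept in medium with 10% fetal bovine serum and selected with 1 µg/mL puromycin. They come from resistant colonies pooled after 2 weeks of selection, per the labels. Each decoy in each line is thus a single stable line, and the labels do not say that replicates were separate cultures. The p-values below measure the spread between these libraries, which may be technical, and an effect of the decoy and any change that came with making the stable lines cannot be told apart. In bulk RNA, fewer cells of a type and less RNA per cell cannot be told apart either.

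Hepatocytes make most of the proteins of plasma: protease inhibitors, carriers of metals, hormones and vitamins, complement factors and clotting factors. Their genes share a small set of liver transcription factors, among them the HNF4, FOXA and C/EBP families. In inflammation, interleukin-6 acting through STAT3, with interleukin-1 and C/EBP factors, raises one class of them, the positive acute-phase genes, and another class, the negative acute-phase genes, falls. A microRNA pairs through its seed with sites in the 3′ untranslated region (3′UTR) of a transcript, which is known to lower that transcript.

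The mature sequence of the decoy's target, miR-17-5p, is shown because its seed defines the sites sought in the plasma protein transcripts. It lies at chr13:91350618-91350640 on the plus strand of GRCh38.p14, per RefSeq, and the capitals mark the seed, bases 2 to 8. The 2 sites below it are from 3′UTRs in GENCODE 29, one transcript a gene, with the matched letters in capitals. In TTR these pair with the whole seed, and in C5 the last capital lies opposite base 1 of the microRNA, outside the seed.
hsa-miR-17-5p: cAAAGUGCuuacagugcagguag
TTR: tcctgtgaaagGCACTTTtcattccactt
C5: tttgtaaagctCACTTTActtagaattag
The forms sought were the 8mer GCACTTTA, the 7mer GCACTTT and the 7mer CACTTTA, each on the transcript's own strand. A site of any form was found in 3 of the 31 genes that were tested, TTR, C5 and TF, which is 9.68%, against 27.7% of 12726 tested genes with a 3′UTR. The 3′UTRs of the plasma protein genes are short, with a median of 272 bases against 1052 bases over those genes. TTR and TF each held 1 GCACTTT and 1 CACTTTA, TF in a 3′UTR of 18020 bases. A match is a description of letters, not a shown binding site.

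The libraries held 12884225 to 15076431 gene counts each, so that 1 count is 0.0657 to 0.0795 CPM (counts scaled to a common library total with TMM factors). A count of 0 allows a level of up to 3 counts, or 0.197 to 0.239 CPM. These limits, and the intervals below, cover counting error only. Scaled by gene-count totals without TMM factors, hepatocyte markers summed to 18859 to 19926 CPM in HepG2 miR-17 TuD and 25657 to 26677 CPM in HepG2 NC TuD. In SK-Hep1 they summed to 4.14 to 4.55 CPM with the miR-17 decoy and 10.8 to 17.4 CPM with the control decoy. Of 7 tested mesenchymal markers, 2 (FN1 and CDH2) were called higher and 5 lower in HepG2 than in SK-Hep1 in each arm, VIM among the lower with 9 to 39 counts in a HepG2 library and 123774 to 136260 in an SK-Hep1 library. Of 7 tested endothelial markers, 5 were called higher in HepG2 than in SK-Hep1 in each arm, and 2, ENG (915 to 1066 counts in SK-Hep1) and ROBO4 (351 to 415 counts), lower. Over all genes tested, 87.3% were called between the lines with the miR-17 decoy and 86.7% with the control decoy. Of all genes, 43.1% and 42.8% were higher in HepG2 in the same order, so these marker counts only describe the lines. The endothelial genes PECAM1, KDR and ERG had 0 counts and CDH5 at most 1 in each SK-Hep1 library.

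Per library, the 34 genes together took 2.45%, 2.4% and 2.4% of gene counts in HepG2 miR-17 TuD and 2.29%, 2.27% and 2.34% in HepG2 NC TuD. In SK-Hep1 they took 0.0127% and 0.0117% with the miR-17 decoy and 0.0116% and 0.0129% with the control decoy. The share was slightly higher with the miR-17 decoy in HepG2, without overlap, while in SK-Hep1 the arms overlapped. SERPINA1 alone made up 21.1% and 20.4% of the sum in the HepG2 arms (miR-17 TuD, NC TuD), and 57.5% and 53.8% in the SK-Hep1 arms in the same order.

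Levels between genes were compared as CPM per kilobase of coding sequence. Reads from 3′UTRs are not set apart in the counts, so a long 3′UTR can raise a gene on this scale. SERPINA1 has 1254 coding bases and a 3′UTR of 1702 bases, and AHSG 1101 and 388 bases. The order of these genes therefore holds for this scale only. On that scale in HepG2 NC TuD, SERPINA1, the alpha-1-antitrypsin gene, led with 3838 ± 75.9 (SD, n = 3 here and below for HepG2). AHSG (fetuin-A) followed with 2294 ± 81.8, then TF (transferrin, the iron carrier) with 1825 ± 18.7 and AMBP, the precursor of alpha-1-microglobulin and bikunin, with 1062 ± 29.8. In HepG2 miR-17 TuD the order was the same, with SERPINA1 at 4067 ± 67.5, AMBP at 1081 ± 28, and AHSG (2089 ± 70.2) and TF (2012 ± 14.2) close to each other there. At the other end, HRG and LBP were at or near 0, and PLG was at 0.135 ± 0.0264 with the miR-17 decoy and 0.153 ± 0.101 with the control decoy. The set thus spans from among the most abundant transcripts of HepG2 to ones not detectable at this depth.

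**Figure D1:**
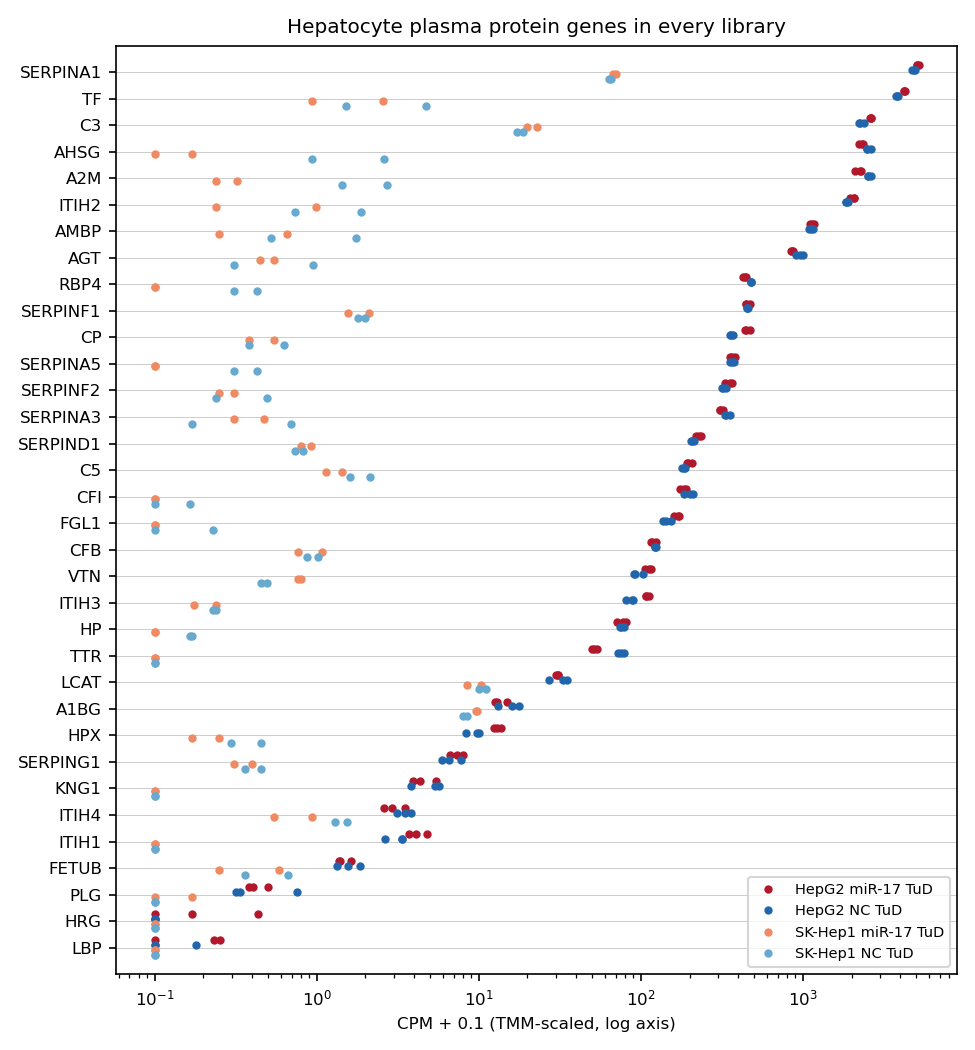
Level of each of the 34 genes in each of the 10 libraries, as CPM with TMM scaling plus 0.1 on a log axis; points are libraries, and a point at 0.1 is a count of 0. HepG2 libraries lie to the right of the SK-Hep1 libraries for the tested genes, with the smallest gap for A1BG (12.6 to 14.8 CPM in HepG2 miR-17 TuD against 9.59 and 9.71 CPM in SK-Hep1 miR-17 TuD).

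The first comparison asked how transcripts of plasma proteins differed in HepG2 when miR-17 was held by the decoy. Of the 34 genes, 31 passed the filter on low counts and were tested with edgeR, 16 of these (51.6%) were called at an adjusted p below 0.05, 10 higher and 6 lower in miR-17 TuD, and 15 were not called. PLG, HRG and LBP were not tested. Over all 13349 genes tested, 19.3% were called, 10.7% higher and 8.58% lower. Abundant genes are called more readily: among genes averaging at least 50 CPM in HepG2, 15 of 23 plasma protein genes (65.2%) were called, 9 higher and 6 lower, against 29.8% of 4668 genes, 13% higher and 16.8% lower. The median log2 fold change of the 31 genes was 0.01 and its median size 0.13, against 0.00 and 0.11 over all genes tested. Only 3 of the 16 calls, TTR, HPX and ITIH3, were past 1.25-fold. The arms did not overlap in 18 of the 31 genes (58.1%), 12 higher and 6 lower, against 31% of all genes tested, 16.1% higher and 14.9% lower.

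Among the 7 serpins, a family of protease inhibitors, 3 were called higher and 1 lower. SERPINA1, which inhibits neutrophil elastase, had 5198, 5048 and 5055 CPM in miR-17 TuD and 4833, 4709 and 4896 CPM in NC TuD (log2 fold change 0.08 ± 0.03 SE, adjusted p = 0.0409). SERPIND1, heparin cofactor II, an inhibitor of thrombin, had 237, 219 and 228 CPM against 204, 208 and 214 CPM in NC TuD (0.13 ± 0.04, adjusted p = 0.017). SERPINF2, the plasmin inhibitor alpha-2-antiplasmin, had 357, 365 and 330 CPM against 317, 320 and 338 CPM in NC TuD (0.11 ± 0.04, adjusted p = 0.0427). The arms of SERPINF2 overlapped, the only case among the 16 calls. SERPINA3, alpha-1-antichymotrypsin, went the other way, with 322, 310 and 309 CPM in miR-17 TuD and 329, 335 and 354 CPM in NC TuD (-0.11 ± 0.04, adjusted p = 0.0375). SERPINA3 and SERPINA5 are neighbours on chromosome 14, with SERPINA1 4 protein-coding genes away, so genes of this cluster gave 1 higher, 1 lower and 1 uncalled value. SERPINA5 (protein C inhibitor), SERPINF1 (pigment epithelium-derived factor) and SERPING1 (C1 inhibitor) were not called, with log2 fold changes of -0.00 ± 0.04, 0.01 ± 0.04 and 0.11 ± 0.14. Each of the 4 serpin calls was lost when some single library was left out: SERPINA1 without replicate 1 of either arm or replicate 2 of NC TuD, SERPIND1 without replicate 1 of either arm, SERPINF2 without replicate 1 or 2 of either arm, and SERPINA3 without any one miR-17 TuD library or the NC TuD library of replicate 3.

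Of the 6 other protease inhibitor genes, 2 were called higher and 1 lower. A2M, alpha-2-macroglobulin, which traps proteases of many classes, had 2293, 2109 and 2256 CPM in miR-17 TuD and 2533, 2521 and 2634 CPM in NC TuD. Every miR-17 TuD library was below every NC TuD library (-0.21 ± 0.03, adjusted p = 5.78e-06). ITIH1, ITIH2 and ITIH3 encode heavy chains of inter-alpha-trypsin inhibitors, which bind hyaluronan and are joined to bikunin. ITIH3 had 108, 107 and 113 CPM in miR-17 TuD and 81, 90 and 87.9 CPM in NC TuD (0.35 ± 0.05, adjusted p = 2.97e-07). ITIH2 had 2060, 1946 and 2072 CPM against 1838, 1895 and 1848 CPM in NC TuD (0.12 ± 0.04, adjusted p = 0.0267). Both heavy chains were higher without overlap between the arms. ITIH1 had the larger fold change of 0.45 ± 0.19 on 4.69, 4.01 and 3.64 CPM in miR-17 TuD and 3.28, 3.26 and 2.55 CPM in NC TuD, and did not pass (adjusted p = 0.0941). ITIH1, ITIH3 and ITIH4 lie side by side on chromosome 3, and ITIH4 was at -0.22 ± 0.20. AMBP, the bikunin gene, was at 0.02 ± 0.04. The call of ITIH2, unlike those of A2M and ITIH3, was lost without replicate 1 of either arm or replicate 3 of NC TuD.

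Among the 7 carriers, HPX and CP were called higher and TTR and RBP4 lower. TTR, transthyretin, which carries thyroxine and, bound to retinol-binding protein, vitamin A, had 53.8, 51.4 and 50.1 CPM in miR-17 TuD and 72.1, 79.1 and 75 CPM in NC TuD. Its log2 fold change of -0.54 ± 0.06 was the largest in size among the 31 genes (adjusted p = 1.20e-10). TTR is also 1 of the 3 genes with a miR-17 site, but it was lower, not higher, when miR-17 was held. TF and C5, which also have a site, were not called, at 0.14 ± 0.08 and 0.11 ± 0.04. RBP4, the retinol-binding protein that travels with transthyretin, had 439, 447 and 428 CPM against 480, 479 and 481 CPM in NC TuD (-0.13 ± 0.04, adjusted p = 0.00456). Both partners of the vitamin A complex were therefore lower, TTR by the wider margin. HPX, hemopexin, which clears free haem, had 13.7, 12.4 and 12.8 CPM in miR-17 TuD and 9.7, 8.27 and 9.9 CPM in NC TuD (0.47 ± 0.11, adjusted p = 0.00106). CP, ceruloplasmin, the copper-carrying ferroxidase, had 445, 438 and 473 CPM against 355, 371 and 358 CPM in NC TuD (0.32 ± 0.04, adjusted p = 8.33e-10). Neither gene had overlapping arms. TF had 4246, 4189 and 4203 CPM in miR-17 TuD and 3863, 3819 and 3785 CPM in NC TuD. Its arms stood apart, but at 0.14 ± 0.08 it was not called (adjusted p = 0.278) in the fit that shares its spread with the SK-Hep1 libraries, where TF varied from 0.84 to 4.6 CPM. In a fit of the HepG2 libraries alone, TF was called at the same fold change (adjusted p = 0.00147). HP, haptoglobin, which binds free haemoglobin, was at 0.01 ± 0.05, and its counts may be split with its near-identical neighbour HPR. A1BG, a plasma glycoprotein, was at -0.21 ± 0.10 (adjusted p = 0.147), and since the kit kept no strand its reads cannot be told apart from those of its antisense partner A1BG-AS1.

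**Figure D2:**
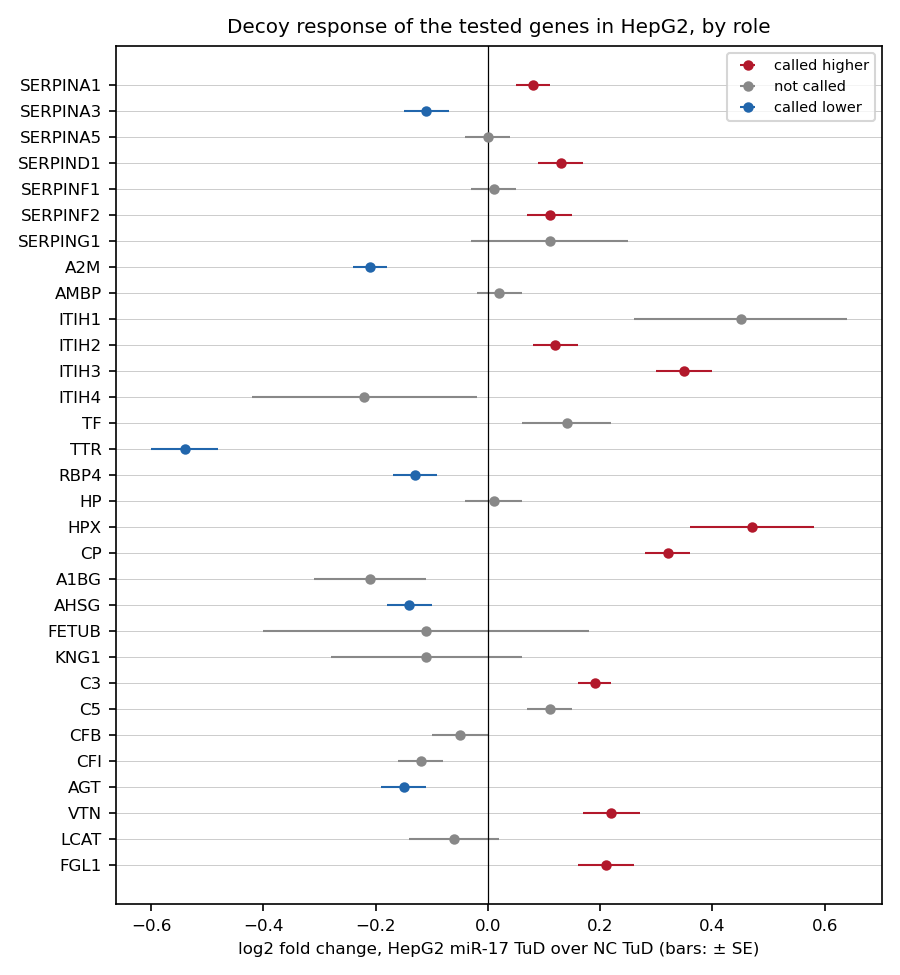
Log2 fold change of each of the 31 tested genes in HepG2, miR-17 TuD over NC TuD, ordered by role from serpins at the top to other genes at the bottom; bars are ± SE and colours give the edgeR call. The values lie between -0.54 for TTR and 0.47 for HPX, with 10 called higher and 6 lower.

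Of the 3 tested cystatin-like genes, AHSG was called. AHSG, fetuin-A, a carrier of calcium phosphate particles, had 2321, 2364 and 2214 CPM in miR-17 TuD and 2473, 2475 and 2630 CPM in NC TuD (-0.14 ± 0.04, adjusted p = 0.00934). It was lower in every miR-17 TuD library, and without replicate 3 of NC TuD it was no longer called. FETUB, which encodes its relative fetuin-B, and KNG1, the kininogen gene, are close by on chromosome 3 with HRG, and were both at -0.11 (SE 0.29 and 0.17) with low levels. HRG, the histidine-rich glycoprotein gene, had 1, 5 and 0 counts in miR-17 TuD and 0 in each NC TuD library.

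Of the 4 complement genes, C3 was called. C3, on which the complement pathways converge, had 2653, 2622 and 2583 CPM in miR-17 TuD and 2237, 2269 and 2391 CPM in NC TuD. All 3 miR-17 TuD libraries were higher (0.19 ± 0.03, adjusted p = 1.04e-05). C5, from which the membrane attack pathway starts, was at 0.11 ± 0.04 (adjusted p = 0.0675). CFB, a protease subunit of the alternative pathway, was at -0.05 ± 0.05, and CFI, which degrades C3b, was at -0.12 ± 0.04 (adjusted p = 0.0547).

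The remaining genes included 3 further calls. AGT, angiotensinogen, the precursor of angiotensin peptides, had 863, 876 and 850 CPM in miR-17 TuD and 968, 908 and 1001 CPM in NC TuD (-0.15 ± 0.04, adjusted p = 0.00135). VTN, vitronectin, an adhesion protein of plasma and matrix, had 116, 112 and 106 CPM against 92.4, 90.2 and 103 CPM in NC TuD (0.22 ± 0.05, adjusted p = 7.73e-04). FGL1, a fibrinogen-like protein of the liver, had 169, 160 and 173 CPM against 143, 153 and 138 CPM in NC TuD (0.21 ± 0.05, adjusted p = 5.85e-04). AGT was lower, and VTN and FGL1 higher, with no overlap between arms. LCAT, which esterifies cholesterol on lipoproteins, was at -0.06 ± 0.08. PLG, plasminogen, had 4, 6 and 4 counts in miR-17 TuD and 3, 3 and 9 in NC TuD. LBP, which hands bacterial lipopolysaccharide to its receptor, had 0, 2 and 2 counts against 0, 1 and 0 in NC TuD. Of the 16 calls in HepG2, 10 were kept when each of the 6 libraries was left out in turn, those of TTR, HPX, ITIH3, CP, VTN, FGL1, C3, A2M, AGT and RBP4.

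**Figure D3:**
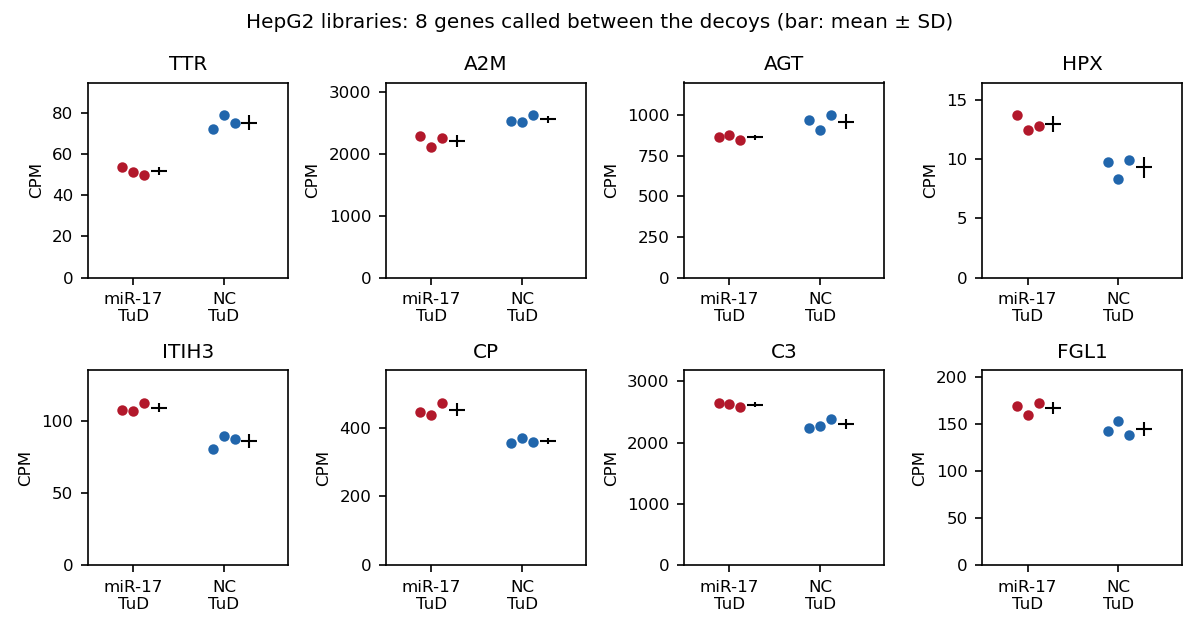
CPM of 8 of the called genes in each HepG2 library, miR-17 TuD left of NC TuD; points are libraries, the black bar is the mean ± SD, and each axis starts at 0. TTR, A2M and AGT lie lower in all 3 miR-17 TuD libraries, and HPX, ITIH3, CP, C3 and FGL1 higher.

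By acute-phase class the calls were mixed. Of the 12 tested positive acute-phase genes of the set, 6 were called higher (SERPINA1, HPX, CP, ITIH3, C3, FGL1), 2 lower (SERPINA3, AGT) and 4 not called, with a median log2 fold change of 0.10. Of the 4 negative ones, 3 were called lower (TTR, RBP4, AHSG), 0 higher, and TF was not called, with a median of -0.13. Over all genes tested, 10.7% were called higher and 8.58% lower, and among genes averaging at least 50 CPM in HepG2, 13% and 16.8%. In the same libraries, 5 of 31 tested genes of acute-phase signalling were called higher and 1 lower, which at 19.4% is near the share over all genes. STAT3 stood at 175 ± 3.83 CPM in miR-17 TuD and 153 ± 5.75 CPM in NC TuD, JAK1 at 146 ± 1.26 and 123 ± 5.28 CPM, and the interleukin-1 receptor gene IL1R1, the lower one, at 83.8 ± 1.5 and 106 ± 3.25 CPM in the same order. Of 28 liver transcription factor genes, 4 were called higher and 2 lower, which at 21.4% is also near that share. HNF4A stood at 306 ± 6.61 CPM in miR-17 TuD and 265 ± 9.23 CPM in NC TuD, and CEBPA at 177 ± 15.3 and 155 ± 5.51 CPM. The 2 lower ones were FOXA3 (-0.26 ± 0.08, adjusted p = 0.0204) and NFIL3 (-0.16 ± 0.06, adjusted p = 0.0426).

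Other liver-secreted plasma protein genes outside the set were called in a similar share, 18 of 31 tested (58.1%), 10 higher and 8 lower, and some by more. Over all genes tested the share was 19.3%, 10.7% higher and 8.58% lower, and 29.8% among genes averaging at least 50 CPM in HepG2. ALB, albumin, averaged 9502 ± 358 CPM in miR-17 TuD and 13572 ± 310 CPM in NC TuD (-0.51 ± 0.04), and SAA4, a constitutive serum amyloid, 26.6 ± 1.68 and 13.9 ± 1.55 CPM (0.94 ± 0.09). HAMP, the iron hormone hepcidin, averaged 13.6 ± 1.25 CPM in miR-17 TuD and 26.4 ± 1.78 CPM in NC TuD (-0.96 ± 0.09). Beside the calls in the set, 9 of 10 hepatocyte markers, most of them abundant secreted proteins, were called lower in HepG2 miR-17 TuD. That compares with 8.58% of all genes tested and 16.8% of genes averaging at least 50 CPM in HepG2. The part of these markers in the results was not tested.

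Promoter windows, 250 bases before to 50 bases after a gene's start, were on hand for 22 of the 34 genes, 31 windows in all, from RefSeq on GRCh38.p14. They were searched on both strands for letters of liver and acute-phase factors. AHSG and A2M were called in both lines and in their difference, and AHSG, the one of them with a window on hand, is shown in full. Its window, chr3:186612810-186613109 on the plus strand, holds a match to the HNF4 letters CAAAGTCCA starting 179 bases before the start and one to the C/EBP letters TTGCNNAA starting 59 bases before it, both on the opposite strand and in capitals here.
AHSG: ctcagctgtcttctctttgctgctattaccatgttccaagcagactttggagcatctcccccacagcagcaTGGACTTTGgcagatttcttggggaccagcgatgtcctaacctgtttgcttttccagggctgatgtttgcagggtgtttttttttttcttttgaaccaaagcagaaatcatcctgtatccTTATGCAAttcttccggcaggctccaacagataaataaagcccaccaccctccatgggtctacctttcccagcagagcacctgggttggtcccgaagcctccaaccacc
The HNF4 letters were in 1 of the 31 windows (3.23%), that of AHSG shown above, against 0.385% of 34796 windows of all genes. A share resting on 1 window says nothing about the set. Letters of HNF1, another liver factor, were in 3 of the 31 windows (9.68% against 0.325%). These belong to 2 genes, C5 and PLG, and the PLG windows overlap and hold the same match. The C/EBP letters were in 22.6% against 10.5%. The TATAAA letters were in 22.6% against 11.6%. Each share counts windows, several of which belong to 1 gene.

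The STAT letters TTCCNGGAA, which read the same on both strands, were in 16.1% of the windows, those of AGT, CFB, VTN, SERPINA5 and A1BG, against 1.15% of all windows. Stretches around 3 of them are given to set a called lower, an uncalled and a called higher gene side by side, with the match in capitals. AGT lies at chr1:230714264-230714312 on the minus strand, CFB at chr6:31945983-31946031 on the plus strand and VTN at chr17:28370388-28370436 on the minus strand.
AGT: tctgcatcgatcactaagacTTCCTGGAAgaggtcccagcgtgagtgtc
CFB: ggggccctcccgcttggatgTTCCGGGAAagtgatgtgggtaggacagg
VTN: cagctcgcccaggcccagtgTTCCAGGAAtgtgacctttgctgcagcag
The 5 genes with these letters did not move one way in HepG2: VTN was called higher, AGT lower, and CFB, SERPINA5 and A1BG were not called. No binding was measured, and a match says only that the letters are there.

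In SK-Hep1 most of these transcripts were close to 0. Raw counts are given for that reason, the 2 miR-17 TuD libraries before the 2 NC TuD libraries. SERPINA1 had the most, 939 and 962 counts against 908 and 1003 in NC TuD, then C3 with 307 and 281 against 245 and 283. LCAT had 138 and 120 counts against 142 and 167 in NC TuD, and A1BG 130 and 137 against 119 and 120. These 4 genes had the highest counts of the set in SK-Hep1. SERPINF1 had 27 and 21 counts against 27 and 26 in NC TuD, C5 14 and 19 against 29 and 23, and CFB 9 and 14 against 11 and 14. SERPIND1 had 11 and 10 counts against 9 and 11 in NC TuD, and VTN 9 and 10 against 5 and 6. Other genes called in HepG2 were lower still: AGT had 6 and 5 counts against 3 and 13 in NC TuD, CP 6 and 4 against 4 and 8, and SERPINA3 5 and 3 against 1 and 9. SERPINF2 had 2 and 3 counts against 2 and 6 in NC TuD, HPX 2 and 1 against 5 and 3, ITIH3 1 and 2 against 2 and 2, and FGL1 0 and 0 against 0 and 2. None of these genes was called between the decoys in SK-Hep1. TTR, ITIH1, KNG1, HRG and LBP had 0 counts in all 4 libraries. Whether they are transcribed below 3 counts a library cannot be seen at this depth.

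Between the decoys in SK-Hep1, 2 of 31 tested genes were called, 0 higher and 2 lower with edgeR, against 0.869% of all genes tested, 0.667% higher and 0.202% lower. At an unadjusted p below 0.05, 1 gene was higher (C3) and 7 were lower. The share of all genes at that unadjusted limit was not counted, so no direction of the set is read from these counts. DESeq2 called 0 higher, and limma on the deposited log2 values called 1 (VTN). AHSG had 0 and 1 counts in miR-17 TuD and 12 and 38 in NC TuD (log2 fold change -5.24 ± 0.75, adjusted p = 2.17e-05). Counted over both libraries, the NC TuD level was 46.9 times that of miR-17 TuD, with a 95% interval of 8.04 to 1889. A2M had 3 and 2 counts in miR-17 TuD and 19 and 40 in NC TuD (-3.41 ± 0.47, adjusted p = 1.95e-06), a level in NC TuD of 11.1 times that in miR-17 TuD (4.48 to 35.3). Both calls held with each SK-Hep1 library left out in turn. Both were lost with limma on the log2 values of the SK-Hep1 libraries alone, at adjusted p = 0.13 for AHSG and 0.12 for A2M. The arms did not overlap in 12 of the 31 genes (38.7%), 4 higher and 8 lower, against 40.4% of all genes tested, 18.4% higher and 21.9% lower, which is near the background.

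Other genes of the set that are abundant in HepG2 were also counted more often in SK-Hep1 NC TuD, without passing the test. RBP4 had 0 and 0 counts in miR-17 TuD and 3 and 5 in NC TuD, and SERPINA5 had the same 4 counts (adjusted p = 0.093 and 0.0937). AMBP had 2 and 8 counts against 6 and 25 in NC TuD (adjusted p = 0.217). ITIH2 had 12 and 2 counts against 9 and 27 in NC TuD (adjusted p = 0.368), and TF 33 and 12 against 20 and 70 (adjusted p = 0.754). NC TuD replicate 2 was the highest of the 4 libraries in AHSG, A2M, AMBP, ITIH2 and TF. Without NC TuD replicate 1, 5 genes were called instead of 2, adding AMBP, ITIH2 and TF, and without miR-17 TuD replicate 1 there were 3, adding ITIH2.

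Set against the HepG2 NC TuD level, 16 genes that average at least 50 CPM there stayed under 20 parts in 10000 of it in every SK-Hep1 library. Pooled, they stood at 3.55 and 2 parts in 10000 in the miR-17 TuD libraries and at 4.08 and 11.2 parts in the NC TuD libraries. These 16 were chosen for lying under that limit. The 7 other genes of at least 50 CPM lay above it, at 35.8 (SERPIND1) to 141 (SERPINA1) parts in NC TuD replicate 2. The 10 hepatocyte markers, none of them in the set, stood at 1.74 and 1.58 parts in miR-17 TuD and 4.12 and 6.67 parts in NC TuD. Within that list ALB had 0 and 4 counts against 59 and 113 in NC TuD. The 3 fibrinogen chain genes ran the other way and were called higher, FGA with 27 and 21 counts against 1 and 7 in NC TuD, FGB with 9 and 12 against 2 and 2, and FGG with 11 and 13 against 2 and 3. Of the 10 markers, 3 were thus called higher and 5 lower, against 0.667% higher and 0.202% lower of all genes tested in SK-Hep1. LYZ, which HepG2 transcribes at 2552 ± 43.9 CPM in NC TuD, had 1 and 0 counts in SK-Hep1 miR-17 TuD and 13 and 35 in SK-Hep1 NC TuD. The part of reads of HepG2 origin in these low counts was not tested.

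**Figure D4:**
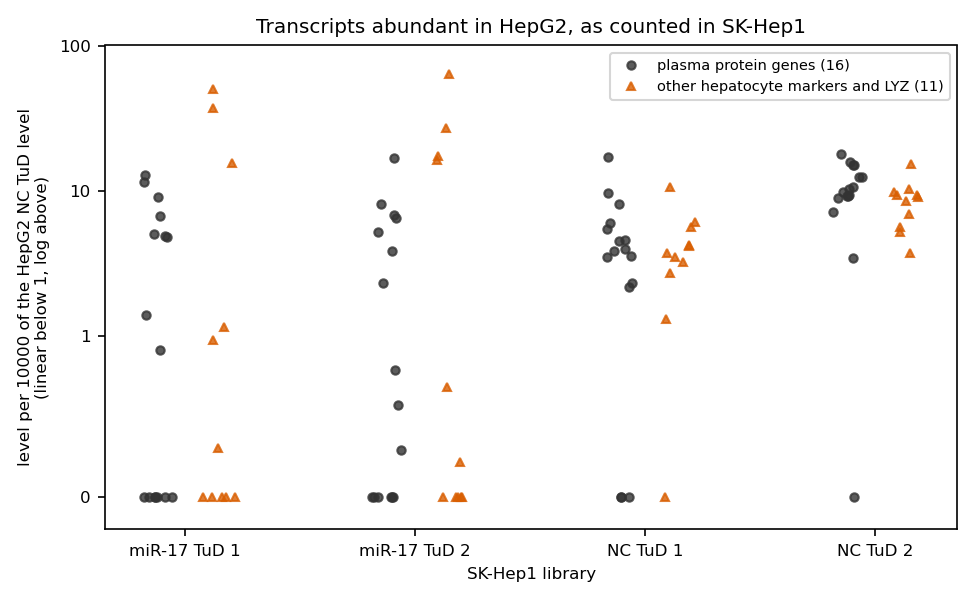
Level in each SK-Hep1 library as parts per 10000 of the mean HepG2 NC TuD level, linear below 1 and log above; circles are 16 plasma protein genes chosen for lying under 20 parts in every SK-Hep1 library, without the 7 abundant ones above that limit, and triangles are the hepatocyte markers and LYZ. Of the circles, 7 and 6 are at 0 in the miR-17 TuD libraries and 3 and 1 in the NC TuD libraries.

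The difference between the decoy responses, HepG2 minus SK-Hep1, was called for 4 of the 31 genes, all higher, against 3.75% of all genes tested, 2.51% higher. AHSG (5.11 ± 0.76, adjusted p = 1.74e-05) and A2M (3.20 ± 0.48, adjusted p = 4.93e-06) were lower with the miR-17 decoy in both lines, by -0.14 and -0.21 in HepG2 and by -5.24 and -3.41 in SK-Hep1. For RBP4 (4.84 ± 1.39, adjusted p = 0.0464) and SERPINA5 (4.97 ± 1.45, adjusted p = 0.0374) the SK-Hep1 miR-17 TuD libraries are at 0, so the fitted sizes depend on the prior count of the fit, and both calls were lost under DESeq2. All 4 differences rest on at most 40 counts in any SK-Hep1 library. In SK-Hep1 NC TuD replicate 2, AHSG, A2M and LYZ stood at 10.2, 10.6 and 9.31 parts in 10000 of their HepG2 NC TuD level. LYZ and ALB were also counted less in SK-Hep1 miR-17 TuD, whereas FGA, FGB and FGG were counted more. The part of reads of HepG2 origin in these low counts was not tested. C3, which is well counted in both lines, differed by -0.06 ± 0.09 between the responses, and SERPINA1 by 0.00 ± 0.07.

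The last comparison set HepG2 against SK-Hep1 within each decoy. All 31 tested genes were higher in HepG2, with the miR-17 decoy and with the control decoy, against 43.1% and 42.8% of all genes tested. Most entered the test through their HepG2 counts, so the count describes the set and supports nothing further. The median log2 difference was 9.87 with the miR-17 decoy and 9.22 with the control decoy. The smallest was that of A1BG, at 0.48 ± 0.12 and 0.94 ± 0.13, followed in NC TuD by ITIH4 at 1.35 ± 0.26, LCAT at 1.60 ± 0.10 and FETUB at 1.83 ± 0.44. SERPINA1 was 72.9 times higher with the miR-17 decoy (95% interval 69.7 to 76.3) and 71.4 times higher with the control decoy (68.3 to 74.7), and C3 121 and 123 times. TTR, with 0 counts in SK-Hep1, was at least 235-fold higher with the miR-17 decoy and at least 356-fold higher with the control decoy, taking 3 counts a library as the limit. On the same limit KNG1 was at least 20.2-fold and 22.8-fold higher and ITIH1 at least 18.7-fold and 14.3-fold higher. Among 28 liver transcription factor genes, 26 were higher in HepG2 in each arm. HNF4A had 306 ± 6.61 CPM in HepG2 miR-17 TuD against 0.07 ± 0.099 CPM in SK-Hep1 miR-17 TuD.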

How the data were processed

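Per the labels, libraries were made from 150 ng of total RNA with a poly(A) kit that keeps no strand and read as 50 bp pairs. The authors deposited a file of whole-number counts per library and 1 table of log2 values. The sources conflict: the submitters' processing notes name FastQC, STAR, SAMtools, HTSeq 0.5.4p5, limma and hg19, whereas the series text names Bowtie/TopHat, a mouse genome and RSEM. Entries for reads outside genes, 19.3% to 22.3% of a column, were left out. The deposited log2 matrix (13658 genes, 13616 shared with the counts) equals log2 of the count plus 0.5 less 1 constant per library, with a largest departure of 5e-14, and 0 of its columns were left unused.

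The test was that of edgeR 4.0.16 under R 4.3.3 (filterByExpr, TMM, 1 robust quasi-likelihood fit of 10 libraries with 4 group means, two-sided, Benjamini-Hochberg adjustment over 13349 genes, calls below 0.05). CPM use TMM factors, as mean ± SD, whereas sums over hepatocyte markers, ratios of counts and parts per 10000 use gene-count totals. Alternatives were other scalings and filters, DESeq2 1.42.0, limma 3.58.1 on the log2 matrix, only the groups compared, a replicate block, and each library left out. The script was tested on simulated data. No pair of replicates was a repeat of 1 library: chi-square per degree of freedom was 1.39 to 3.59.

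All 34 genes are named, by role, with values in every library for those called between decoys and the 5 most abundant in HepG2 NC TuD. The 34 genes and the gene lists were chosen with earlier results of these data known. Intervals of ratios are exact at 95%. Each SE of a log2 fold change was derived from the test, as the size of the fold change over the square root of the quasi-likelihood F value. Motif letters and gene lists came from textbook knowledge, promoters and miR-17 from RefSeq, and 3′UTRs and coding lengths from GENCODE 29, while the counts were made on another build. Some items are not reported here.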

Additional observations from a re-analysis of the deposited data

Results flagged for a closer look

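Between the lines, 4 plasma protein genes differed in their decoy response by the test of the difference itself (edgeR, HepG2 minus SK-Hep1, n = 3 and 2 libraries per arm). AHSG differed by 5.11 on the log2 scale, with 33150, 35352 and 29196 counts in HepG2 miR-17 TuD and 33903, 31124 and 36126 in HepG2 NC TuD, against 0 and 1 in SK-Hep1 miR-17 TuD and 12 and 38 in SK-Hep1 NC TuD. A2M differed by 3.20, with 3 and 2 counts in SK-Hep1 miR-17 TuD and 19 and 40 in SK-Hep1 NC TuD. RBP4 differed by 4.84 and SERPINA5 by 4.97, each with 0 and 0 counts in SK-Hep1 miR-17 TuD and 3 and 5 in SK-Hep1 NC TuD. Counts of ALB and LYZ, both abundant in HepG2, were lower in the same SK-Hep1 libraries, and those of FGA, FGB and FGG higher; their part in these differences was not tested.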

How the results depend on the processing

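In HepG2, 16 genes were called, and 11 to 16 with 1 library left out. On the log2 matrix with limma over all 10 libraries, 2 were called (TTR and C3); with the HepG2 libraries alone, an alternative chosen after seeing the data, 14 were, 13 of them among the 16. In SK-Hep1, 2 were called, 2 to 5 with 1 library left out, 6 on the log2 matrix, adding HP, RBP4, SERPINA5 and VTN, and 0 on it with the SK-Hep1 libraries alone. The difference between lines was called for 4 genes, 2 under DESeq2, 2 with the replicate block, and 2 to 5 with 1 library left out; AHSG and A2M were kept in all of these, while RBP4 and SERPINA5 were lost without HepG2 NC TuD replicate 1 and without any single SK-Hep1 library, and RBP4 also without HepG2 miR-17 TuD replicate 1 or 2. The calls of HepG2 over SK-Hep1 stayed at 29 to 32 genes. The replicate numbers gave no sign of pairing the libraries. In deviations from group means over 8071 genes, same-numbered ones correlated at 0.07, -0.42 and -0.38 in HepG2 and -0.11 and -0.11 in SK-Hep1. Other-numbered ones correlated at -0.14 to 0.46 in HepG2 and at 0.11 in SK-Hep1. Deviations within a group sum to 0, so the SK-Hep1 values are 1 number with either sign and the HepG2 values are linked. The highest correlations were those of miR-17 TuD 3 with NC TuD 2 (0.46) and miR-17 TuD 2 with NC TuD 3 (0.37) in HepG2. A block with crossed numbers was not fitted in HepG2, so spread shared by those libraries was not tested. With the numbers as a replicate block, 11 genes were called in HepG2 and 2 in SK-Hep1; with crossed numbers in SK-Hep1, 2 were called there and 3 between lines. Without the 10 most abundant genes, the set's share of gene counts was 2.62% in HepG2 miR-17 TuD and 2.51% in HepG2 NC TuD. Without SERPINA1 it was 1.91% and 1.83% there, and 0.00518% in SK-Hep1 miR-17 TuD and 0.00564% in SK-Hep1 NC TuD. Scaling moved the median of all genes by at most 0.056. Between decoys and in the difference between lines, values of called genes kept their call in 274 cases and lost it in 66, values of uncalled genes stayed uncalled in 1060 and gained a call in 26, and 0 calls changed sign. Why single libraries decide some calls was not tested. Depth limits SK-Hep1, where most of the genes have under 100 counts.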

Other observations

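The early secretory pathway is the route by which plasma proteins leave the cell. Of 58 of its genes tested in HepG2, 0 were called higher, 29 lower and 29 not called in miR-17 TuD. A positive fold change was seen in 6, and the median log2 fold change was -0.11. Of all genes tested, 8.58% were called lower, and of the more readily called genes averaging at least 50 CPM in HepG2, 16.8%. HSPA5, a chaperone that folds secreted proteins, averaged 1761 ± 32.1 CPM in miR-17 TuD and 2100 ± 50.5 CPM in NC TuD (-0.25 ± 0.03, adjusted p = 5.65e-09 by edgeR, n = 3 each). LMAN1, a cargo receptor for secreted glycoproteins, averaged 388 ± 17.7 CPM in miR-17 TuD and 455 ± 26.5 CPM in NC TuD (-0.23 ± 0.04), and SSR1, a subunit beside the translocon, 376 ± 23.9 and 434 ± 15.2 CPM (-0.21 ± 0.04). HSPA5 averaged 867 ± 31.2 CPM in SK-Hep1 miR-17 TuD and 818 ± 2.94 CPM in SK-Hep1 NC TuD (n = 2 each).

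In SK-Hep1 the cytokine genes IL6 and IL1B, which drive acute-phase genes in liver cells, were called higher with the miR-17 decoy. IL6 averaged 36.2 ± 2.21 CPM in miR-17 TuD and 26.9 ± 0.95 CPM in NC TuD (0.43 ± 0.09, adjusted p = 0.00563 by edgeR), and IL1B 424 ± 20.4 and 346 ± 10.6 CPM (0.29 ± 0.05, adjusted p = 3.94e-05). In HepG2, IL6 had 0 CPM in all 6 libraries.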
